A study of Mus musculus with 28 samples.

Results

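The 8 genes described here are markers of cortical layers and of the projection neurons within them, measured by Transcriptome Tomography along the 3 axes of the mouse brain. The upper-layer genes were Cux2 and Rasgrf2, the layer 4 gene was Rorb, and the deep-layer genes were Fezf2, Bcl11b, Tbr1 and Tle4. Lamp5 was measured with them and was given no layer. The genes were taken by name from the 20660 genes that could be named on the array. They were covered by 13 probes, and each gene was read from its brightest probe, judged by the mean over all 28 arrays. All 8 used probes passed the filter for tested probes, which required that every series had 1 or more fractions with a signal well above background. The second probes of Rasgrf2, Rorb, Bcl11b, Tbr1 and Tle4 were kept as a check.

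The whole brains were those of C57BL/6J males at 3 weeks of age, and no treatment or altered allele is named. Brain 1 was cut into 12 coronal fractions, brain 2 into 6 horizontal fractions and brain 3 into 10 sagittal fractions. Each fraction, a stack of consecutive frozen sections, was hybridised to 1 array, so plane and mouse cannot be told apart and no position was measured in a second animal. The label of coronal fraction 12 also names the fraction after it, so its RNA came from a wider slab.

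The neocortex is built of layers that run parallel to its surface. Neurons of the upper layers mostly project to other cortical areas, layer 4 neurons receive input from the thalamus, and deep-layer neurons project to the thalamus, midbrain, hindbrain and spinal cord. Transcription factors set these identities during development and many stay on afterwards. Several are also used outside the neocortex: Bcl11b in the spiny neurons of the striatum, Tbr1 in projection neurons of the olfactory bulb, and Rorb in the thalamus and midbrain. A flat fraction of a brain cuts through all layers and through other structures, so a level below is that of a slab and not of a layer.

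Upstream sequence is shown for 1 gene of each layer class, as a landmark of where the 3 transcripts begin on the genome. These were the members whose RefSeq start (GRCm38.p6) is also the outer end of the annotated gene, so that the 250 bases lie outside it. All 3 are on the minus strand and are printed 5′ to 3′, with CG dinucleotides in capitals.
Rasgrf2, chr13:92131829-92132078: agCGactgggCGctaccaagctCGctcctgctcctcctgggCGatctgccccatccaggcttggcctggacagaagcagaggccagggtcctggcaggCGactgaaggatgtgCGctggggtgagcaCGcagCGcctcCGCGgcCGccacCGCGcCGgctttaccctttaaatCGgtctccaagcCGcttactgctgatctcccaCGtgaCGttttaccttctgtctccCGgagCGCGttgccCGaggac
Rorb, chr19:19111197-19111446: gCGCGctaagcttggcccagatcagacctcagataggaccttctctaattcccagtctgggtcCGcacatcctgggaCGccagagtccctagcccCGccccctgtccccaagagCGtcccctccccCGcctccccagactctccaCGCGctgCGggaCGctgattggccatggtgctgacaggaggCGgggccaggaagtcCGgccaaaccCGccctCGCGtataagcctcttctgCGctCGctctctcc
Tle4, chr19:14598184-14598433: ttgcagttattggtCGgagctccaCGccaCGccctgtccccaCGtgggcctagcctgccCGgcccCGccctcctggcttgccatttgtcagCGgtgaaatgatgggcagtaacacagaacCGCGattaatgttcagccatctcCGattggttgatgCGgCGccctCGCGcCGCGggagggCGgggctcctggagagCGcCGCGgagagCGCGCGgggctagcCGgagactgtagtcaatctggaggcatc

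The windows held 22 CG dinucleotides for Rasgrf2, 18 for Rorb and 24 for Tle4, against a median of 6 over 32851 promoters of the same length. Their GC content was 65.2% for Rasgrf2, 66.0% for Rorb and 65.2% for Tle4, against a median of 52.4%. Motifs were searched on both strands as GGTGTGA (T-box), AGGTCA (ROR) and CAGATG (an E-box), whose letters do not overlap. They were present in 3.33%, 14.0% and 14.4% of all promoters, and none of them lay in these 3 windows. Of 12 member promoters, 1 held any of them, the E-box letters in a Cux2 window that lies inside the annotated gene. The other Cux2 window, at the start nearer the outer end of the gene, held none of them.

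Levels are on the log2 scale relative to the 75th percentile of the processed signal on the same array, so 0 is that percentile and a difference of 1 is 2-fold. That percentile lay between 135.2 and 573.5 signal units, and 24822 to 34240 of 55681 probes were well above background on an array. Repeated spots of 1 probe had a median SD of 0.056 to 0.085 log2 within an array. The levels of the used probes of Cux2, Rasgrf2, Lamp5, Rorb, Bcl11b and Tbr1 were well above background in all 28 fractions, Tle4 in 27 and Fezf2 in 25. Gene lists for regions placed the axes: cerebellar genes were highest in coronal fraction 2 (list mean 4.69 above the series mean), hindbrain genes in coronal fraction 1 (5.21), olfactory bulb genes in coronal fraction 12 (5.85), hypothalamic genes in horizontal fraction 6 (4.44) and sagittal fraction 5 (2.29). The arrays lay on 4 slides. Coronal fractions 1 and 2 shared a slide with the horizontal series, coronal fractions 3 to 10 had a slide of their own, coronal fractions 11 and 12 shared one with sagittal fractions 5 to 10, and sagittal fractions 1 to 4 had the last.

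Along the coronal axis the deep-layer genes Fezf2, Bcl11b and Tbr1 spanned the widest ranges of the 8, with their lowest levels in caudal fractions 1 to 3 and their highest in fraction 9. Cux2 and Rasgrf2, the upper-layer genes, spanned less than 2-fold between their lowest and highest fractions with the probe used. A curve over the fraction number (limma, a moderated F test of a spline) passed an adjusted p of 0.05 for 7 of the 8 genes, where 33.7% of all 32364 tested probes passed. The fitted curves of those 7 were highest between fractions 7 and 9. With 1 array per position, the scatter around the curve was the only error. A lower level in a slab cannot be told apart between fewer cells of a type and less RNA per cell.

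Tbr1, a T-box factor of layer 6 corticothalamic neurons, ranged from -2.10 through a median of 3.44 to 4.59. It stood at -2.10, -2.03 and -1.51 in coronal fractions 1, 2 and 3, between 3.06 and 4.59 in fractions 4 to 10, and at 2.33 and 1.88 in fractions 11 and 12. The highest fraction, fraction 9, was 103.0-fold above fraction 1. All 9 fractions from 4 onwards stood above the caudal 3. This split was set after the values were seen, and the share of all probes that split alike was not counted. The trend passed with an adjusted p of 0.00101 (limma) and a fitted range of 7.63.

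Fezf2, a zinc finger factor needed for subcerebral projection neurons, followed the same course. It stood at -6.12, -6.52 and -6.64 in fractions 1 to 3, where it was not well above background, at -0.27 in fraction 4, between 0.32 and 1.22 in fractions 5 to 10, and at -1.05 and -2.99 in fractions 11 and 12. Against the lowest signal that counted as well above background, fraction 9 was at least 57.3-fold higher than fraction 3. Its level at the rostral end was thus well below that in the middle fractions, though above that in the caudal ones. The trend passed with an adjusted p of 0.00471 (limma).

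Bcl11b, also known as CTIP2 and used by corticospinal and striatal neurons, had its lowest levels in fractions 2 and 3 (-2.16 and -2.15) and stood at -0.84 in fraction 1. It reached 0.50 in fraction 4 and 2.99 in fraction 9, 35.5-fold above fraction 2, with a median of 1.79. Unlike the curves of Tbr1 and Fezf2, that of Bcl11b held at the rostral end, with 2.69 in fraction 11 and 2.51 in fraction 12. The list of striatal genes was highest in coronal fractions 8 and 9, at 2.74 and 2.55 above its mean, where Bcl11b stood at 2.54 and 2.99. In fractions 11 and 12, where Bcl11b held, that list was at -0.14 and -1.01. Its part in the level of Bcl11b was not tested. The adjusted p of the trend was 0.00424 (limma).

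Tle4, a co-repressor of the Groucho family found in layer 6, was the only deep-layer gene whose coronal trend did not pass (adjusted p = 0.127, limma). It lay between -2.90 in fraction 3 and -1.32 in fraction 8, with a median of -2.20. Fraction 10 stood low at -2.88, between -1.61 in fraction 9 and -1.73 in fraction 11, and without fraction 10 the trend passed with an adjusted p of 0.00748. The second probe of Tle4 passed (0.0277), and it stood low in fractions 10, 11 and 12 alike, at -2.63, -2.99 and -2.65.

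Rorb, a nuclear receptor that marks layer 4, ranged from 0.63 in fraction 3 to 2.24 in fraction 8, a 3.05-fold difference, with a median of 1.70. Fractions 6 to 9 lay between 2.05 and 2.24, above all others. Its level in fraction 1, 1.52, was not among the lowest. The trend passed with an adjusted p of 0.0292 (limma). That call was lost in 5 of 12 fits that each left out 1 fraction (2, 4, 6, 7 or 8), where the adjusted p reached 0.0814.

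Cux2, a homeodomain factor of upper-layer neurons, lay between -1.62 in fraction 1 and -0.74 in fraction 6, a 1.84-fold difference, with a median of -1.09. Rasgrf2, an exchange factor that activates Ras and Rac, lay between -1.88 in fraction 1 and -1.11 in fraction 9, a 1.71-fold difference, with a median of -1.5. Of all tested probes, 22.5% had a smaller coronal range than Cux2 and 16.4% a smaller one than Rasgrf2, against 99.6% for Tbr1 and 98.1% for Bcl11b, while the range of Fezf2 is only a lower bound and was not ranked. The probe used for Rasgrf2 and its second probe differed in span: the second ran from -3.43 in fraction 3 to -1.54 in fraction 9, a 3.71-fold difference. The trends passed by little, with adjusted p-values of 0.0372 for Cux2 and 0.0459 for Rasgrf2 (limma), and the second Rasgrf2 probe passed at 0.00477. Leaving out any 1 of fractions 1 to 9 lost the call of Cux2 (adjusted p up to 0.0943), and leaving out any 1 fraction but 7 lost that of Rasgrf2 (up to 0.113).

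Lamp5, a membrane protein of the LAMP family found in layer 2/3 neurons and in a class of interneurons, had a course of its own. It stood at 2.41 in fraction 1, came to 1.68 in fraction 3, reached 2.72 in fraction 8 and was lowest at the rostral end, with 1.53 in fraction 11 and 0.99 in fraction 12. Its 10 spots per array had an SD of 0.027 to 0.121 log2, which is measurement error within an array only. The adjusted p was 0.0014 (limma), and 0.208 with a fitted range of 0.89 in place of 1.76 when the spline had 1 df fewer.

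**Figure D1:**
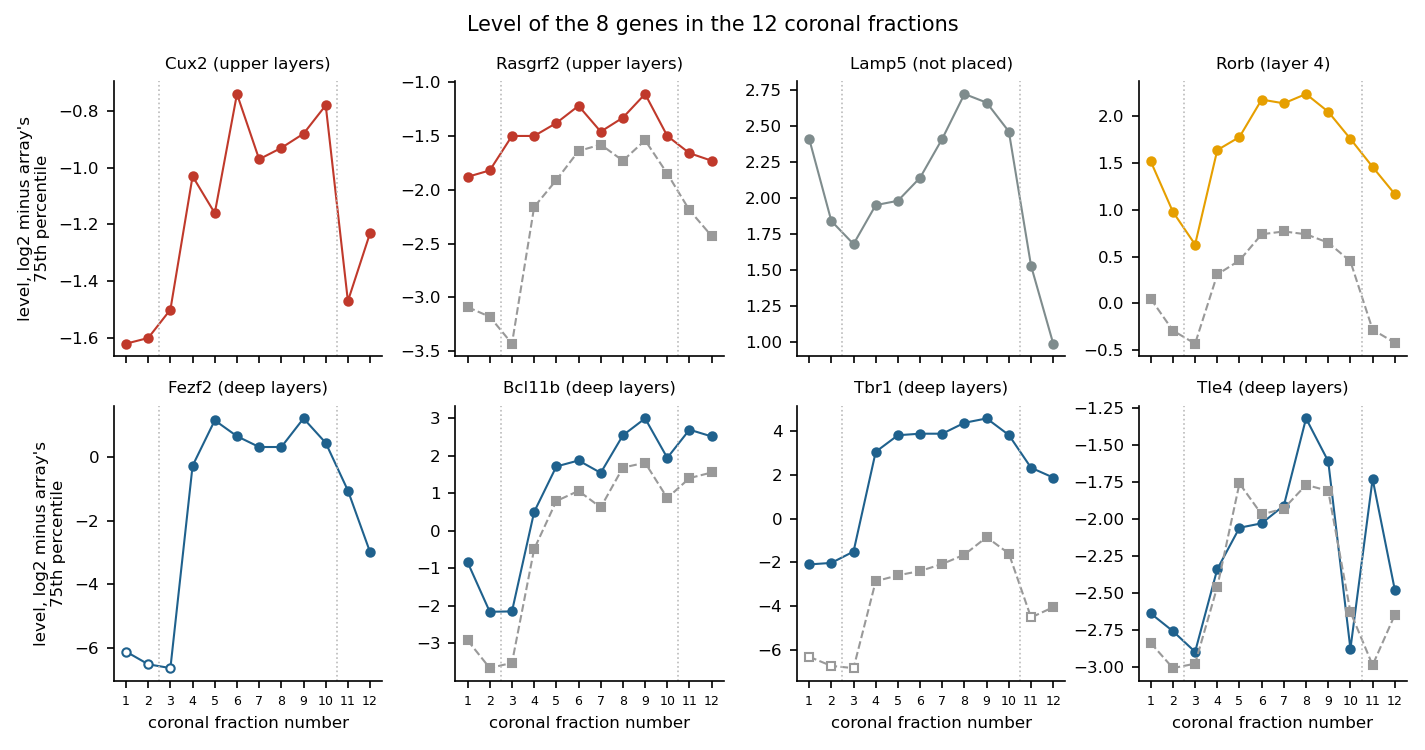
Level of each gene (log2 minus the 75th percentile of the array, vertical axis, with a scale of its own in each panel) against the coronal fraction number. Coloured circles are the used probe, grey squares the second probe, open symbols values not well above background, and dotted lines mark changes of slide. Fezf2, Bcl11b and Tbr1 step up between fractions 3 and 4, while Cux2 spans -1.62 to -0.74.

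Position and slide overlapped in the coronal series, since the caudal 2 and rostral 2 fractions lay on other slides than the middle 8. With slide as a term in the same fit, 0 of the 8 genes and 241 of all probes (0.745%) passed. The fitted range went from 7.63 to 8.84 for Tbr1, 4.65 to 5.34 for Bcl11b, 1.19 to 1.8 for Rorb, 0.85 to 1.4 for Cux2 and 1.09 to 3.0 for Tle4, but from 1.76 to 1.18 for Lamp5 and from 0.62 to 0.35 for Rasgrf2. That of Fezf2 rests on values not well above background in fractions 1 to 3 and is not compared. Within the 8 fractions of 1 slide, the trends of Lamp5, Rorb, Fezf2, Bcl11b and Tbr1 passed, with adjusted p-values of 0.0357, 0.0269, 0.0358, 0.0294 and 0.0358 (limma), where 12.9% of all probes passed, and those of Cux2 (0.174), Rasgrf2 (0.746) and Tle4 (0.103) did not. Scaled to the array median, the coronal trends of Cux2 (0.13), Rasgrf2 (0.226) and Rorb (0.121) also lost their calls, where 31.8% of all probes passed. The call of Rasgrf2 was lost with quantile normalization (0.0828) and with no filter on dim probes (0.079), as was that of Cux2 with no filter (0.0545), and that of Tle4 passed with normexp (0.0105), a background correction fitted to each array.

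The step from coronal fraction 3 to fraction 4 lay within that slide. It was chosen after its values were seen and has no test of its own. Fezf2 was at least 4.34 log2 (at least 20.3-fold) higher in fraction 4, Tbr1 4.58 and Bcl11b 2.65 higher. Rorb was 1.00 higher, Tle4 0.57, Cux2 0.48 and Lamp5 0.27. The probes of Rasgrf2 disagreed, with 0.01 for the used and 1.26 for the second probe. Over all tested probes the median of this step was -0.02, and the middle 90% ran from -1.12 to 1.01. Across the same step the list of cerebellar genes went from 4.67 to 2.61 above its mean, and the list of pallial excitatory neuron genes from -1.71 to 0.29. The part of these lists in the members' step was not tested. Under the array median, quantile normalization and the normexp background correction, the step of each gene kept its direction except that of Rasgrf2, which was -0.06 with normexp. The sizes were smaller with normexp for Fezf2 (2.84, or 7.14-fold, below the bound given above) and Tle4 (0.22).

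At the rostral end, coronal fraction 12 differed from fraction 9 by -4.21 log2 for Fezf2, -2.71 for Tbr1, -1.67 for Lamp5, -0.87 for Rorb, -0.86 for Tle4, -0.61 for Rasgrf2, -0.48 for Bcl11b and -0.35 for Cux2. The median over all tested probes was -0.08. With normexp the difference of Fezf2 was -3.1. Scaled to the array median, where the median of all probes was 0.26, the differences were -0.54 for Rorb, -0.53 for Tle4, -0.28 for Rasgrf2, -0.15 for Bcl11b and -0.01 for Cux2. Relative to the median of all probes they were -0.80, -0.79, -0.54, -0.40 and -0.27 in that order under either scaling. Between the same fractions the olfactory bulb list went from -1.7 to 5.85, the striatal list from 2.55 to -1.01, the pallial list from 1.12 to -0.69 and the myelin list from -0.34 to -1.83, and their part in the members' difference was not tested. These fractions lay on different slides, and the comparison was chosen after the values were seen. The deep-layer genes thus parted here, with Fezf2 and Tbr1 among the lowest 1.7% of probes and Bcl11b above 29.0% of them.

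A straight slope within the 8 coronal fractions of 1 slide passed for 1 of the 8 genes, where 9.19% of all probes passed. That gene was Lamp5, at 0.14 ± 0.03 log2 per fraction (SE, adjusted p = 0.033, limma), and the call was lost without fraction 3, 4, 5, 6, 7 or 9, with adjusted p-values up to 0.129, and when scaled to the array median (0.0932). Without fraction 10, the slopes of Bcl11b (0.69, adjusted p = 0.0463) and Tle4 (0.22, 0.0343) passed. The slope of Bcl11b also passed with normexp (0.0248), with no filter on dim probes (0.0306), among probes well above background in every fraction (0.0294) and over all 12 fractions (0.00411), where the slope of Lamp5 was -0.02 (0.753). The slopes of Tbr1 (0.56, 95% interval 0.08 to 1.03) and Bcl11b (0.51, 0.19 to 0.84) rested on fraction 3, without which they were 0.15 and 0.27. For Fezf2, fraction 3 was not well above background, and the slope without it was 0.07. The slopes of Cux2 (0.07, 0.01 to 0.14) and Rasgrf2 (0.02, -0.04 to 0.09) were small with the probes used. With normexp that of Cux2 was 0.08 and passed (adjusted p = 0.04, limma). The second Rasgrf2 probe had a slope of 0.18 ± 0.07 (SE), which did not pass (adjusted p = 0.119, limma).

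In the horizontal series the fraction with the highest level differed between genes, and no difference between layer classes was tested. Cux2, Rasgrf2 and Lamp5 were highest in fraction 1, Rorb, Fezf2 and Tbr1 in fraction 2, Bcl11b in fraction 4 and Tle4 in fraction 5. The second probes were highest in fraction 1 for Tbr1 and fraction 2 for Tle4, and in the same fraction as the used probe for Rasgrf2, Rorb and Bcl11b. Fraction 6, rich in hypothalamic genes, was the lowest for 7 of the 8 genes, and Bcl11b was lowest in fraction 1. The position trend passed for 2 of the 8 genes, Bcl11b (adjusted p = 0.0195) and Tbr1 (0.0326, limma), where 15.8% of all probes passed, and Fezf2 missed the threshold by little (0.0502). Scaled to the array median, all 8 genes passed, but so did 19347 of all probes (59.8%). With normexp 6 of the 8 passed, all but Rasgrf2 and Tle4, among 9066 probes (28.0%).

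Cux2 stood at -0.27 in horizontal fraction 1, at -1.08 in fraction 2 and between -1.34 and -1.78 in fractions 3 to 6. Rasgrf2 stood at -0.98 in fraction 1 and between -1.79 and -1.97 in all others. Lamp5 stood at 3.65 in fraction 1, at 2.47 in fraction 2, at 1.28 and 1.06 in fractions 3 and 4, at 2.02 in fraction 5 and at 1.00 in fraction 6. In each of the 3 genes fraction 1 thus stood above all other fractions, by 2.85-fold over the lowest for Cux2, 1.98-fold for Rasgrf2 and 6.31-fold for Lamp5. Their trends did not pass (adjusted p = 0.0643, 0.133 and 0.0712, limma), and without fraction 5 or fraction 6 that of Lamp5 did (0.0237 and 0.0495).

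Rorb was nearly level over the dorsal fractions, at 2.29 and 2.31 in fractions 1 and 2, and stood at 1.59, 1.86, 1.29 and 1.18 in fractions 3 to 6. The second Rorb probe differed by -0.20 between the first 2 fractions, against -0.01 for the used probe. Its trend did not pass (adjusted p = 0.0817, limma).

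Tbr1 stood at 4.29 and 4.38 in horizontal fractions 1 and 2, at 3.54, 2.99 and 3.06 in fractions 3 to 5 and at 2.04 in fraction 6, a 5.05-fold range. Fezf2 stood at 0.32 in fraction 1, 1.1 in fraction 2, 0.10 in fraction 3, then -0.52, -0.96 and -1.51, a 6.09-fold range. In both genes fractions 1 to 3 thus stood above fractions 4 to 6, a split described after the values were seen. The share of all probes that split alike was not counted. The list of pallial excitatory neuron genes had its highest mean in fraction 1 (0.82) and its lowest in fraction 6 (-1.01).

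Bcl11b took another course, from 0.09 in fraction 1 and 1.31 in fraction 2 to 2.02, 2.10 and 1.87 in fractions 3 to 5 and 1.09 in fraction 6. The striatal list was also highest in fraction 4, at 1.1 above its mean, and stood at -1.15 and -1.25 in fractions 1 and 2. The thalamic list was highest there too (0.7), and over the horizontal fractions the r of Bcl11b was 0.79 with the striatal list but 0.84 to 0.90 with the hippocampal, myelin, cerebellar, thalamic and olfactory bulb lists. Tle4 spanned only 1.48-fold, between -2.49 in fraction 6 and -1.93 in fraction 5, with -2.44 in fraction 1. These horizontal calls rested on single arrays: without fraction 1 the adjusted p of Bcl11b was 0.091, and without fraction 3 or fraction 4 no probe of the array passed. The call of Tbr1 was lost without any 1 of fractions 1, 2, 3, 4 and 6 (adjusted p up to 0.103), and that of Fezf2 was gained without fraction 1 (0.0226) or fraction 2 (0.0371).

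**Figure D2:**
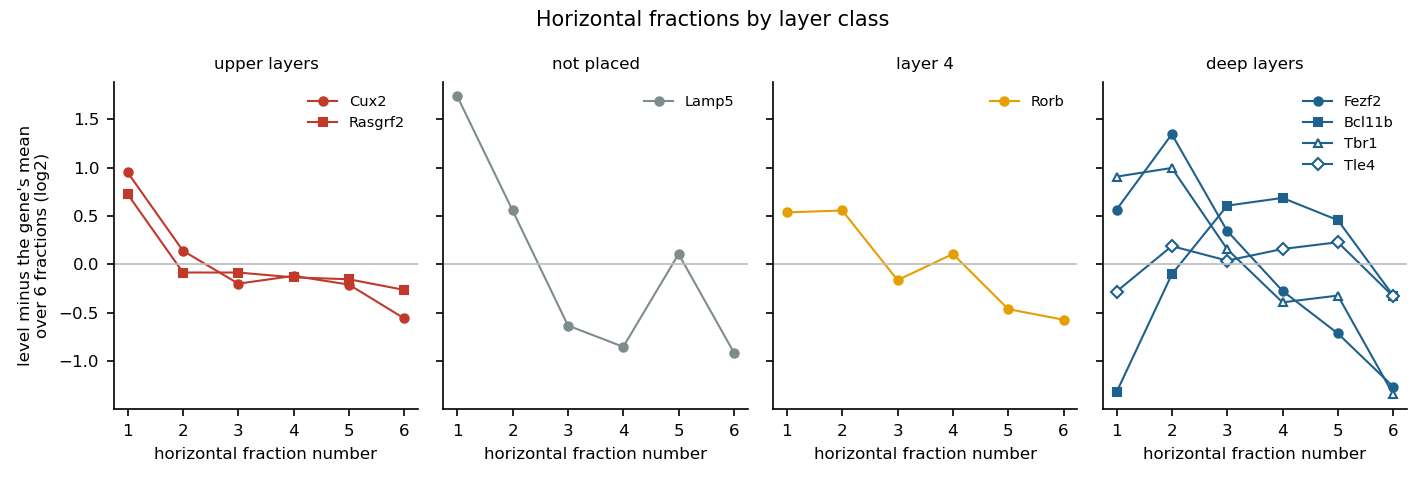
Level of each gene minus its mean over the 6 horizontal fractions (log2, vertical axis) against the fraction number, in 1 panel for each layer class. The upper-layer genes and Lamp5 are highest in fraction 1, whereas Bcl11b is lowest there and highest in fraction 4.

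The step between horizontal fractions 1 and 2 was also chosen after its values were seen and has no test. Fraction 1 was above fraction 2 by 0.81 log2 for Cux2, 0.81 for Rasgrf2 and 1.19 for Lamp5. It was below fraction 2 by 0.78 for Fezf2, 1.22 for Bcl11b and 0.47 for Tle4. Tbr1 (-0.09) and Rorb (-0.01) were nearly level. Over all tested probes the median step was -0.02 and the middle 90% ran from -1.03 to 1.83, with 13.4% above 0.8 and 19.5% below -0.4. The step of Bcl11b lay outside that range, above 3.6% of probes, and those of the other 7 genes lay within it. The second probes gave 1.03 for Rasgrf2, -1.5 for Bcl11b, -0.48 for Tle4, -0.20 for Rorb and 0.45 for Tbr1.

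Scaling to the array median instead shifted this step's median over all probes to -0.65, so steps are also given relative to that median. On that footing Cux2 was at 0.83, Rasgrf2 at 0.83, Lamp5 at 1.21, Fezf2 at -0.75, Bcl11b at -1.20 and Tle4 at -0.45, values that a change of the constant per array cannot alter. With normexp the relative steps were 0.59, 0.54 and 0.98 for Cux2, Rasgrf2 and Lamp5 and -0.74, -1.1 and -0.10 for Fezf2, Bcl11b and Tle4, each in its earlier direction. The relative steps of Rorb (from -0.16 with normexp to 0.20 with quantile normalization) and Tbr1 (from -0.21 to 0.10) changed sign between scalings. Fraction 1 also stood apart in other genes: the myelin list was at -2.17 there against -0.06 in fraction 2, and the cerebellar list at -3.41 against 1.5. The part of these lists in the members' step was not tested.

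**Figure D3:**
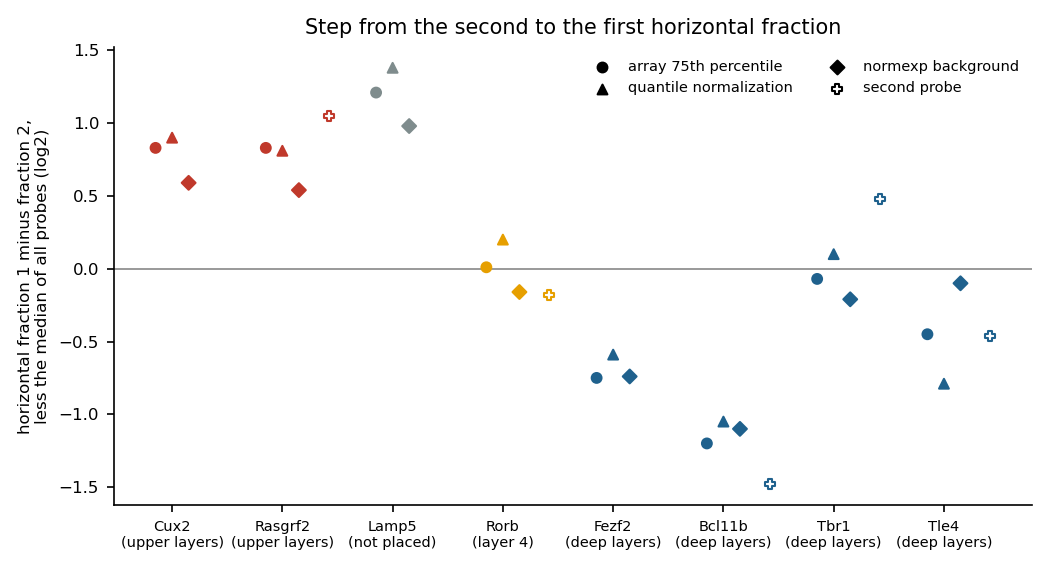
Horizontal fraction 1 minus fraction 2 for each gene, less the median of all tested probes (log2, vertical axis), under 3 ways of processing and for the second probe where there is one. Cux2, Rasgrf2 and Lamp5 lie above 0 and Fezf2, Bcl11b and Tle4 below 0 in each setting, while Rorb and Tbr1 lie on both sides.

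As a straight line over the 6 horizontal fractions, no member's slope passed after adjustment over all probes (limma), where 1 probe did (0.00309%). At an unadjusted p under 0.05 there were 5 of the 8 genes, against 3698 of all probes (11.4%). Slopes per fraction were -0.46 for Fezf2 (95% interval -0.69 to -0.22), -0.45 for Tbr1 (-0.62 to -0.27), -0.42 for Lamp5 (-0.79 to -0.05), -0.24 for Cux2 (-0.41 to -0.08) and -0.24 for Rorb (-0.38 to -0.10). Those of Rasgrf2 (-0.15, -0.31 to 0.01) and Bcl11b (0.19, -0.18 to 0.57) had intervals that included 0. Without fraction 1 the slopes were -0.22 for Lamp5, -0.14 for Cux2 and -0.04 for Rasgrf2. The difference between the slopes of 2 genes was not tested.

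The sagittal series runs from one side of the brain to the other, and slopes were fitted on the distance from its middle, with both sides taken as alike. The region lists did not mirror exactly: the olfactory bulb list was at -1.63 in fraction 3 and 1.04 in fraction 8, and the cerebellar list at -4.26 in fraction 1 and -1.20 in fraction 10. Fezf2 and Tbr1 both had their lowest level in fraction 6, next to the middle. Fezf2 stood at 0.34 and -0.30 in the middle fractions 5 and 6 and at 0.54 and 0.79 in the outer fractions 1 and 10, with a lowest, median and highest level of -0.30, 0.30 and 0.90. Tbr1 stood at 3.2 and 2.85 in the middle and at 3.42 and 3.91 at the sides, within a range of 2.85 to 4.05 around a median of 3.31. The slope with distance from the midline was 0.20 log2 per fraction for Fezf2 (95% interval 0.06 to 0.35, adjusted p = 0.05, just under the threshold before rounding) and 0.21 for Tbr1 (0.05 to 0.36, 0.0659, limma). The called slopes of the lists for other regions were all lower towards the sides, for 5 of 7 thalamic, 4 of 4 hindbrain, 4 of 7 cerebellar, 4 of 6 myelin, 3 of 7 hypothalamic, 3 of 7 olfactory bulb, 3 of 8 hippocampal and 0 of 8 striatal genes, and their part in the members' slopes was not tested. Fezf2 was the only 1 of the 8 genes to pass, where 20.8% of all probes passed, and its slope was 0.03 (adjusted p = 0.879) when scaled to the array median, as was that of Tbr1 (0.873). It was called in 2 of the 10 fits that each left out 1 fraction, those without fraction 5 or 9. Fractions 1 to 4 and 5 to 10 lay on different slides, and with slide as a term the call of Fezf2 was lost (adjusted p = 0.0718, limma). The arrays of fractions 1, 9 and 10 had the lowest signal of the series. Their 75th percentiles were 135.2, 176.0 and 205.4 signal units, against 419.0 and 434.6 in fractions 5 and 6. The part of array signal in the slopes was not tested.

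Cux2 was highest in both outer fractions, at -0.82 in each, and stood at -1.71 and -1.40 in the middle ones, around a median of -1.33. Lamp5 was likewise highest at the sides, with 2.54 and 2.96 against 1.54 and 2.18 in the middle, around a median of 2.18. The slopes of Cux2 (0.16, 95% interval 0.01 to 0.30) and Lamp5 (0.18, with an upper bound of 0.36) did not pass after adjustment (0.102 and 0.14, limma), and scaled to the array median they were -0.01 and 0.01. With normexp that of Cux2 passed (0.0192). Without sagittal fraction 9, where Cux2 stood at -1.68, its slope was 0.19 and passed (adjusted p = 0.0131).

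Rorb (0.00, 95% interval -0.14 to 0.15), Rasgrf2 (-0.03, -0.26 to 0.20) and Bcl11b (-0.03, -0.25 to 0.19) had no slope beyond its error. Rorb lay between 1.68 and 2.46 and Bcl11b between 1.25 and 2.60. Rasgrf2 lay between -2.44 and -1.11, with its lowest levels in fractions 8 and 9 (-2.31 and -2.44) and no such low on the other side, where the mirror fractions 3 and 2 stood at -1.23 and -1.63. The mean absolute difference between mirror fractions was 0.54 for Rasgrf2 and 0.32 for Cux2, against a median of 0.44 over all probes.

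Tle4 stood at -1.72 in fraction 5 and -3.92 in fraction 1 on one side, and at -2.59 in fraction 6 and -2.49 in fraction 10 on the other. Its slope with distance did not pass (-0.25, 95% interval -0.49 to -0.01, adjusted p = 0.122, limma) and was 0.04 with normexp. The second probe, well above background in all 10 fractions, had a slope of -0.22 that passed (adjusted p = 0.0348). Tle4, with the probe used, was the only member whose sagittal position trend passed (adjusted p = 0.027, limma), where 14.7% of all probes passed. Fraction 1, the array with the lowest signal, decided the call: Tle4 was not well above background there, and without that fraction the adjusted p was 0.313 and no probe of the array passed. The call was also lost without fraction 2, 3, 4 or 5 (adjusted p of 0.0547 to 0.0887), for the second probe (0.0865), scaled to the array median (0.111) and with normexp, where the fitted range was 0.43 in place of 2.01 (0.483). The trend of Cux2 was gained without fraction 9 (0.0294) and with normexp (0.0424), and that of Rasgrf2 without fraction 10 (0.0227).

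**Figure D4:**
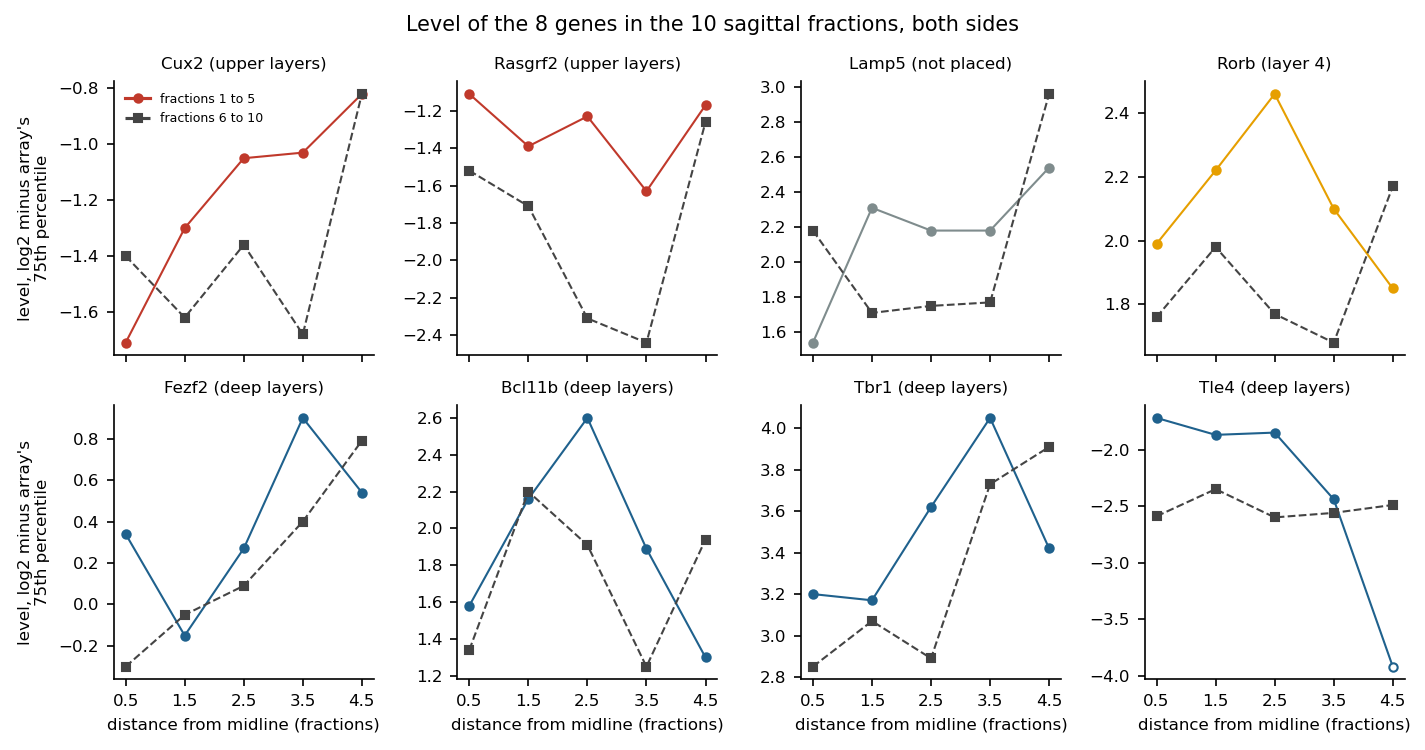
Level of each gene (log2 minus the 75th percentile of the array, vertical axis, with a scale of its own in each panel) against the distance from the midline in fractions. Coloured circles are fractions 1 to 5, dark squares fractions 6 to 10 and the open circle a value not well above background. Fezf2 and Tbr1 are higher in the outer fractions than in the middle ones on either side, and Tle4 has its low value of -3.92 on 1 side.

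Profiles were next compared by Pearson's r over the 28 fractions, with values centred within each series. The values share their arrays and the per-array scaling, and r is given as a description. Fezf2 and Tbr1 were each other's most similar gene among all named tested probes (r = 0.981), with 0.98 over the coronal, 0.95 over the horizontal and 0.88 over the sagittal fractions. Fezf2 was not well above background in coronal fractions 1 to 3. Each r of Fezf2 that includes those fractions, here and below, is therefore approximate, as is its rank. The remaining pairs of deep-layer genes ran down to 0.43 for Fezf2 and Tle4. Over the coronal fractions alone the 6 deep pairs lay between 0.67 and 0.98, but over the sagittal fractions they lay between -0.25 and 0.88 (median 0.02), and over the horizontal fractions Bcl11b was at -0.22 with Fezf2 and -0.35 with Tbr1.

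Cux2 and Rasgrf2 had an r of 0.66 over the 28 fractions and 0.95 over the horizontal ones. The 8 pairs of an upper-layer and a deep-layer gene lay between -0.04 and 0.64, and over the coronal fractions between 0.42 and 0.89, which overlaps the deep pairs. Lamp5 was closest to Cux2 among the members (0.76) and had an r of -0.06 with Bcl11b. Rorb was at 0.69 with Cux2, 0.54 with Rasgrf2 and 0.74 with both Fezf2 and Tbr1, and at 0.52 with both Bcl11b and Tle4.

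Beyond the members, Rorb was most like Catsperz (0.908) and the prohormone convertase Pcsk2 (0.903). Cux2 was most like Dcaf6 (0.882), the nuclear receptor Nr2f1 (0.879) and Otud3 (0.875). Lamp5 was most like the calcium-binding protein Cabp1 (0.877), and Rasgrf2 had no gene above Dennd4a (0.795). Fezf2 was also like the exchange factor Kalrn (0.954) and Rasl10a (0.953), Tbr1 like Rap2b (0.972) and the potassium channel subunit Kcnv1 (0.970), and Bcl11b like Islr2 (0.937), the actinin Actn2 (0.929) and the channel Asic4 (0.922). Tle4 was most like Slmap (0.835). The used and second probes of 1 gene had an r of 0.99 for Bcl11b, 0.95 for Tbr1, 0.93 for Rorb, 0.75 for Rasgrf2 and 0.73 for Tle4.

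Other genes known for the same layers were taken from lists of 10 upper-layer, 4 layer 4, 10 layer 5, 12 layer 6 and subplate, and 9 pallial excitatory neuron genes, all of them tested. Coronal trends passed for 7 of 10 upper-layer, 4 of 4 layer 4, 7 of 10 layer 5, 8 of 12 layer 6 and 9 of 9 pallial genes, against 33.7% of all probes. The median fitted range was 2.29, 2.17, 1.81, 2.05 and 4.12 in that order, against 0.90 over all probes. Genes within a list did not share 1 course: of the 3 brightest upper-layer genes, the fitted curves of Plxnd1 (2.13) and Lhx2 (5.70) were highest at fraction 8 and that of Cux1 (0.78) at fraction 12. Among layer 4 genes, Rspo1 and Kcnh5 were highest at fraction 8 and Rora, which is also abundant in cerebellar Purkinje cells, at fraction 1. Among layer 5 genes, Crym was highest at fraction 8 (7.87) and Etv1, also expressed in cerebellar granule cells, at fraction 1 (2.27), while Pcp4 did not pass (0.63). In layer 6, Rprm was highest at fraction 9 (3.43) and Syt6 at fraction 12 (1.68), and Sox5 did not pass (0.67).

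Horizontal trends passed for 5 of 10 upper-layer, 2 of 4 layer 4, 3 of 10 layer 5, 7 of 12 layer 6 and 7 of 9 pallial genes, against 15.8% of all probes. Lhx2 (1.97), Rspo1 (2.15) and Nrn1 (1.70) were highest at fraction 1, Etv1 (1.67), Syt6 (1.84) and Neurod2 (1.82) at fraction 3 and Sox5 (3.26) at fraction 6. Sagittal slopes with distance passed for 20.8% of all probes and for 5 of 9 pallial genes, all higher towards the sides, among them Nrn1 (0.18). Of the upper-layer genes 4 of 10 passed, 2 in each direction, of the layer 4 genes 1 of 4, lower towards the sides, of the layer 5 genes 3 of 10, 1 higher and 2 lower, and of the layer 6 genes 7 of 12, 3 higher and 4 lower.

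Each member was also set against the mean profile of each list, again as a description. Fezf2 and Tbr1 had an r of 0.95 with the pallial list, Rorb 0.80, Cux2 0.76, Bcl11b 0.66, Lamp5 0.49, Rasgrf2 0.44 and Tle4 0.31. With the striatal list Bcl11b was at 0.68 and Tle4 at 0.67, above the other members, which lay between 0.05 and 0.53. The coronal series alone gave another order: Rorb 0.82, Tle4 0.8, Tbr1 0.73, Lamp5 0.7, Fezf2 0.69, Bcl11b 0.68, and Cux2 and Rasgrf2 0.66 each. In the horizontal and sagittal series Bcl11b (0.79 and 0.82) and Tle4 (0.34 and 0.67) were the highest. Bcl11b had a higher r with the layer 6 and subplate list (0.83) and the upper-layer list (0.73), and Tle4 was at 0.68 with the layer 5 list. Rorb was at 0.83 with the layer 4 list and at 0.86 with the upper-layer list. With the upper-layer list Tbr1 (0.87), Rorb (0.86) and Fezf2 (0.84) had a higher r than the upper-layer genes Cux2 (0.64) and Rasgrf2 (0.52). In the sagittal series alone Tbr1 (0.16) and Fezf2 (-0.01) were below Rasgrf2 (0.43), with Cux2 at 0.02 and Rorb at 0.73. With the layer 6 and subplate list the r was 0.83 for Tbr1, 0.83 for Bcl11b, 0.82 for Fezf2 and 0.59 for Tle4. It was 0.53 for Rorb, 0.31 for Cux2 and 0.13 for Rasgrf2. In the coronal series alone the deep-layer genes lay between 0.74 and 0.9, the lowest close to Cux2 (0.71) and Rasgrf2 (0.65). In the horizontal series Fezf2 (0.0) and Tbr1 (-0.19) had no positive r, against 0.6 for Bcl11b, 0.58 for Tle4, -0.69 for Cux2 and -0.84 for Rasgrf2. In the sagittal series the deep-layer genes lay between 0.41 and 0.78, against 0.05 for Cux2 and -0.24 for Rasgrf2. With the layer 5 list the deep-layer genes lay between 0.66 and 0.73 and Rorb at 0.66, against 0.28 for Cux2 and 0.25 for Rasgrf2. By plane this differed. In the coronal series Cux2 (0.88) and Rasgrf2 (0.83) were above Bcl11b (0.72) and Tle4 (0.65), and below Fezf2 and Tbr1 (0.91 each). In the sagittal series Bcl11b (0.58) and Tle4 (0.78) were above Rasgrf2 (0.15), Tbr1 (0.02), Fezf2 (-0.17) and Cux2 (-0.18). In the horizontal series the deep-layer genes lay between 0.3 and 0.89, against -0.27 for Cux2 and -0.53 for Rasgrf2. Over the horizontal fractions alone, the r with the upper-layer list was 0.95 for Rorb, 0.94 for Cux2, 0.91 for Tbr1, 0.83 for Rasgrf2 and Fezf2, 0.82 for Lamp5, -0.03 for Tle4 and -0.56 for Bcl11b. Myelin genes were at 0.44 with Tle4 and between -0.55 and -0.09 with the other members.

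**Figure D5:**
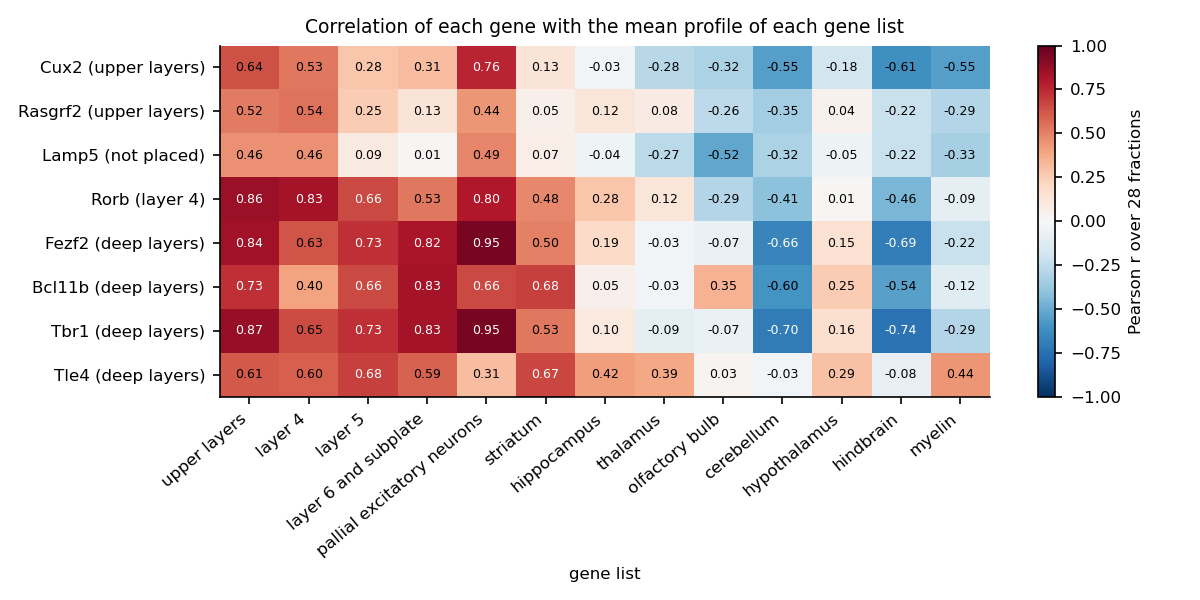
Pearson's r over 28 fractions between each gene (rows) and the mean profile of each gene list (columns), with values centred within each series and the colour scale running from -1 to 1. Fezf2 and Tbr1 reach 0.95 with the pallial list, and with the striatal list Bcl11b (0.68) and Tle4 (0.67) are above the other genes. In the coronal series alone, not drawn here, Rorb (0.82) is above both.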

How the data were processed

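Total RNA of 28 brain fractions from 3 mice was labelled with Cy3 and hybridised to 1-colour Agilent arrays, 1 array per fraction. The deposited intensity values were background-subtracted by Agilent Feature Extraction 10.5.1.1, as the files state. A second table deposited by the authors gave 44721 probes as log2 values, which matched the scaling to the 75th percentile described next to within 0.00758 on every array. They served as an alternative added after seeing the data. Their array medians ran from -2.63 to -1.63, and they carry no centring by gene.

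Here, spots flagged as outliers were left out (108 to 176 of 62976 per array), spots of a probe were averaged, and each array was set to 0 at its 75th percentile on the log2 scale. Probes with the scanner's well-above-background flag on 0.5 or more of their spots were taken as well above background. Tested were 32364 probes. Names came from the arrays' transcript accessions through a RefSeq table (GRCm38.p6, used for names and for the sequences shown), which named 27235 of 55681 probes, and the other 28446 are unnamed here.

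Position was tested within each series with limma 3.58.1 in R 4.3.3, as a natural spline (3 df, horizontal 2 df) or a slope, with p-values adjusted over all tested probes by Benjamini-Hochberg. The script was tested on simulated data. Distance from the midline was the fraction number's distance from 5.5. Signal over background and the number of arrays limit the precision, and p-values measure only the scatter along a series of 1 animal. Python 3.11.15, numpy 2.4.6, pandas 2.3.3 and scipy 1.17.1 were used for the summaries.

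Genes named in the text are the 8 members, for each up to 3 genes with the highest r, and up to 3 genes of highest mean level from each list. Some genes that this rule names are not reported here. The members and lists were chosen with earlier results of these data known. Alternatives were the array median, quantile normalization, normexp (offset 50, on the median foreground and background signals), other filters, the second probe, 1 spline df fewer, slide as a term, 1 slide alone and each fraction left out.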

Additional observations from a re-analysis of the deposited data

Results flagged for a closer look

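In the horizontal series, Rasgrf2 in fraction 1 stood at -0.98 while the next highest fraction stood at -1.79. The gap was 0.818 of the whole range, above Dixon's 95% limit for 6 samples. The second Rasgrf2 probe stood at -0.75 in fraction 1, with the next highest fraction at -1.73 and the lowest at -2.35. Its gap was a smaller share of its range, below that limit. In the sagittal series, Tle4 in fraction 1 stood at -3.92, where it was not well above background, and the next lowest fraction stood at -2.60. The gap was 0.6 of the range, above Dixon's 95% limit for 10 samples, but it rests on a value that is only a bound. The second Tle4 probe, well above background there, stood at -3.03 with the next lowest fraction at -2.77. Of the 16 sets of values looked at in this way, 2 had such a gap. For independent sets of repeated values, about 0.8 would be given by chance. These values are single arrays at different positions, and the sets share arrays. The limit thus serves only to flag values, and the 2 gaps cannot be set against chance.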

How the results depend on the processing

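Of 810 values recomputed for single genes, 666 kept their direction and side of the threshold, 84 lost and 36 gained a call, and 24 changed direction, all of the last with an adjusted p of 0.268 or more. No paired analysis was possible because fraction numbers mark positions in different planes and mice, and no comparison between planes was made.

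Counts of probes and of members past the threshold moved by over 1.5 times as follows. Fits on 1 slide, with fewer fractions or with slide as a term had fewer degrees of freedom. Fits with no filter on dim probes took in more probes, all but 130 of 55681 in place of 32364. Fits among probes well above background in every fraction took in only part of the 32364. Counts under these 2 filters are therefore not of the same total as the others. Other causes were not tested. The coronal position trend passed for 10910 probes, for 17330 with no filter on dim probes, 241 with slide as a term and 4164 on 1 slide, and its 7 members became 4 with the array median and 0 with slide as a term. Leaving out 1 fraction gave 7938 to 11145 probes and 4 to 7 members. The horizontal trend passed for 5115 probes, for 19347 with the array median, 9066 with normexp and 1 with 1 spline df fewer. Its 2 members became 8 with the array median, 6 with normexp, 6 among probes well above background in every fraction and 0 with 1 spline df fewer. For the filter on every fraction the share of all probes that passed is not given, here or for the slopes below. Its member counts can thus not be told apart from a general rise. Leaving out 1 fraction gave 0 to 5754 probes and 0 to 3 members, with 0 probes without fraction 3 or 4. The sagittal trend passed for 4767 probes, for 337 with the array median, 2631 with quantile normalization, 14295 with normexp, 19184 with no filter, 2520 with slide as a term and 0 on 1 slide. Its 1 member became 0 with the array median, quantile normalization, probes well above background in every fraction, the second probe, 1 spline df fewer, slide as a term and 1 slide. Leaving out 1 fraction gave 0 to 15244 probes and 0 to 2 members, with 0 probes without fraction 1.

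The coronal slope on 1 slide passed for 2974 probes, for 7407 with normexp and 14797 with no filter, and its 1 member became 0 with the array median, 3 with normexp, 2 with no filter and 2 among probes well above background in every fraction. Leaving out 1 fraction gave 431 to 2958 probes and 0 to 3 members. The horizontal slope passed for 1 probe, for 0 with the array median, normexp or no filter, 2 with quantile normalization and 41 among probes well above background in every fraction, and for 0 to 0 probes and 0 to 0 members without 1 fraction. The sagittal slope with distance passed for 6732 probes, for 1413 with the array median, 14077 with normexp, 3405 with no filter and 0 on 1 slide. Its 1 member became 0 with the array median, quantile normalization, the authors' values, no filter, slide as a term or 1 slide, and 2 with normexp, with the second probe or among probes well above background in every fraction. Leaving out 1 fraction gave 1962 to 11212 probes and 0 to 2 members.

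For position trends a change of direction means that the fitted curve ran against that of the reported fit, and the value is the fitted range, at 0.13 for Tle4 in the horizontal series with normexp and 0.49 for Bcl11b in the sagittal series on 1 slide. Coronal slopes were -0.0 for Rasgrf2 with the array median and -0.02 for Lamp5 over all 12 fractions, and that of Tle4 ran from -0.0 (without fraction 3) to 0.22 over the fits without 1 fraction. Among horizontal slopes, Bcl11b ran from -0.06 (without fraction 1) to 0.44 and Tle4 from -0.09 to 0.10 (without fraction 6, and 0.02 without fraction 2), with 0.0 for Tle4 with normexp. Among sagittal slopes, Cux2 was at -0.01 with the array median. Rasgrf2 was at 0.08 with normexp and 0.01 with the second probe, and ran from -0.1 to 0.03 without 1 fraction, above 0 without fraction 5 or 9. Rorb was at -0.17 with the array median, -0.05 with normexp and -0.02 with slide as a term, and ran from -0.03 to 0.03 without 1 fraction, below 0 without fraction 2, 6 or 10. Bcl11b was at 0.04 on 1 slide and ran from -0.1 to 0.04, above 0 without fraction 1 or 9, and Tle4 was at 0.04 with normexp.

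Dim signal limited Fezf2 in coronal fractions 1 to 3 and Tle4 in sagittal fraction 1, where levels are bounds.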
